A study of Mus musculus with 28 samples.

Results

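Histone H3 acetylated at lysine 27 (H3K27ac) was compared between adult germ cells and spermatogonia of Scml2-knockout (KO) mice. The 8 libraries were 4 of adult cells, 2 of pachytene spermatocytes (PS) and 2 of round spermatids (RS), and 4 of spermatogonia from postnatal day 7 (P7) testis, 2 of the Thy1+ and 2 of the c-Kit+ (KIT) fraction. All mice were on the C57BL/6 background, and adult and spermatogonial cells alike carried the knockout. Overlapping peaks of the 8 libraries were merged into 125362 regions, and 1065 that overlapped a peak of any input library were removed. Of the 124297 regions left, 10121 were called in all 8 libraries and could be tested, 6577 (5.29%) were called in all 4 adult and in 0 spermatogonial libraries ("adult-only"), and 70 (0.0563%) were called in all 4 spermatogonial and in 0 adult libraries ("spermatogonia-only"). Just outside these definitions lay 1470 regions called in 4 adult and 1 spermatogonial library, 7043 called in 3 adult and 0 spermatogonial libraries, 310 called in 3 spermatogonial and 0 adult libraries and 74 called in 4 spermatogonial and 1 adult library. The whole series held 28 libraries, of which 12 were H3K27ac and 16 inputs. The 4 H3K27ac libraries of wild-type (WT) P7 spermatogonia, Thy1+ and KIT with 2 each, are set beside the results. None of the 12 H3K27ac libraries was of adult WT cells, so adult cells were not compared between genotypes.

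H3K27ac marks active promoters and enhancers and is written by the acetyltransferases CBP and p300. In the testis, spermatogonia divide by mitosis and then enter meiosis. Pachytene spermatocytes are in meiotic prophase, when homologous chromosomes are paired and recombine and a large programme of germline genes is active, and round spermatids are the haploid cells that build the acrosome, the flagellum and the condensed sperm nucleus. SCML2 is a germline Polycomb-group protein encoded on the X chromosome.

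Groups and replicate numbers came from the sample titles. The labels gave isolation by STA-PUT sedimentation or by magnetic sorting (MACS) without saying which cells had which, and age went with cell stage, so stage, age and isolation cannot be told apart. No label stated that replicates came from separate animals, and p-values therefore measure only the spread between these libraries. Peak numbers were 21286 to 36362 in spermatogonia and 63322 to 73316 in adult cells. Read depth is unknown, and the height of the background in each table was 0.564 to 1.11 in spermatogonia and 0.849 to 1.62 in adult cells. The part of depth in the peak numbers was not tested. At regions called in all 8, the median fold enrichment (signal height over the background of the library) was 13.5 to 19.7 in adult libraries and 7.58 to 16.2 in spermatogonial ones. Markers of the labelled stages were checked at promoters. All 5 spermatocyte markers with a listed start were called in each PS and RS library and 1 to 3 of them in spermatogonial libraries. For round spermatids, 6 of 6 were called in each adult library and 1 of 6 in each spermatogonial one. A peak in all 4 adult and 0 spermatogonial libraries was found at 2 spermatocyte and 5 spermatid markers, beside 6.08% of all genes. Of all genes, 51.9% had promoter peaks in all 8 libraries. Of the 6 spermatogonial markers (Zbtb16, Gfra1, Dmrt1, Sohlh1, Kit and Stra8), 0 to 5 were called in spermatogonial and 3 to 5 in adult libraries, so these did not set the spermatogonial libraries apart. A peak at the promoter of the targeted gene, Scml2, was called in 4 KO libraries, with fold enrichments of 6.08 in Thy1 replicate 1, 4.26 in KIT replicate 1, and 3.81 and 5.33 in PS; acetylation does not measure loss of the protein. In whole populations of cells, fewer cells carrying a mark and less of it per cell cannot be told apart.

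Promoter sequences of 5 genes are shown because these genes stood at the ends of the comparison: Tcp11 had the largest rise among regions called in all 8, Piwil1 and Ldhal6b were among the strongest adult-only promoters, Fbn1 was among the largest falls, and Col3a1 was spermatogonia-only. Each is the 250 bases before a transcription start in RefSeq (GRCm38.p6), read 5′ to 3′ on the strand of the gene: Tcp11 chr17:28080585-28080834 (−), Piwil1 chr5:128735996-128736245 (+), Ldhal6b chr17:5418768-5419017 (−), Fbn1 chr2:125506439-125506688 (−) and Col3a1 chr1:45311288-45311537 (+). Capitals mark matches to short motifs, searched on either strand and allowed to overlap. The letters GTTGCCA are the core bound by RFX factors, which act in spermatids. For MYB proteins, among them A-MYB of pachytene spermatocytes, the letters were AACTGNC. The GC box was read as GGGCGG, a site of the general activator SP1. An E-box was the palindrome CACGTG. The last motif, TATA, was TATAAA.
Tcp11: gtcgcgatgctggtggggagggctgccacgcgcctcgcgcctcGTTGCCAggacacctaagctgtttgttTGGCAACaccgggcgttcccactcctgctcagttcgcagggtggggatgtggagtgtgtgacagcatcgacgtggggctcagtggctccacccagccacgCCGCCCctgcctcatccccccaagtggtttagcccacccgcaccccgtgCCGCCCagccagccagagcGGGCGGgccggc
Piwil1: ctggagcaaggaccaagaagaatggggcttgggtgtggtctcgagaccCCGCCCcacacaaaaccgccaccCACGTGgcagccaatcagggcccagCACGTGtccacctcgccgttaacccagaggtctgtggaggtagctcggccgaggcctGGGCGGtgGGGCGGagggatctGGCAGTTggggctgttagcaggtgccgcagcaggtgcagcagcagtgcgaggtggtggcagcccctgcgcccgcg
Ldhal6b: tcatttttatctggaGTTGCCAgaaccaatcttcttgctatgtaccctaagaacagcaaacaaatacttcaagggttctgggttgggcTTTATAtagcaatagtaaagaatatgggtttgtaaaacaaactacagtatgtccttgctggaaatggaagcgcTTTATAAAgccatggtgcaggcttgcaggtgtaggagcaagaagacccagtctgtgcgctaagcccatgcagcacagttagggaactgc
Fbn1: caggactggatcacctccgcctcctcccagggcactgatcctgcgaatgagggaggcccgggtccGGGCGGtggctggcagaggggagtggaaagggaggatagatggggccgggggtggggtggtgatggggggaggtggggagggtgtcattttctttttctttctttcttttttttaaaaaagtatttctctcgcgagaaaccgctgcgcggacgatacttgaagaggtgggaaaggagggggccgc
Col3a1: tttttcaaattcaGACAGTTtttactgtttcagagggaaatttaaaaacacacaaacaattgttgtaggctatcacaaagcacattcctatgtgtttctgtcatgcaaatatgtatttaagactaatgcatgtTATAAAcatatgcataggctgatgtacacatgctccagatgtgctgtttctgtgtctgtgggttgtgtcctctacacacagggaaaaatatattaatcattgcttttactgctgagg

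The Tcp11 promoter held 2 RFX matches, beginning 207 and 180 bases before the start, and 3 GC boxes. In Piwil1 a MYB match began 75 bases before the start, beside 3 GC boxes and 2 E-boxes. Ldhal6b held 1 RFX match, 235 bases before the start, and 3 TATA matches. The stretch of Fbn1 had 1 GC box, and that of Col3a1 a MYB match 237 and a TATA match 117 bases before the start. Over all 32851 promoters of the same length in the table, 3.66% held the RFX, 10.6% the MYB, 32.7% the GC box, 6.02% the E-box and 12.4% the TATA letters. Base composition differed among the 5: G and C made up 69.2% of Tcp11, 67.6% of Piwil1 and 59.2% of Fbn1, but 43.6% of Ldhal6b and 35.2% of Col3a1, which had no CpG. A match is a description of letters and not of binding.

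Promoters of genes used in spermatids were the clearest adult-only group. Of 29 spermatid and sperm genes with a listed start, 21 (72.4%) had a peak within 1000 bp of the start in all 4 adult and in 0 spermatogonial libraries. Over all 17923 genes this pattern was found in 1089 (6.08%). The adult-only members covered the sperm nucleus (Prm1, Tnp1, Tnp2 and Hils1, which package sperm DNA), the acrosome (Acr, Acrv1, Spaca1 and Spaca4), the fibrous sheath and outer dense fibres of the tail (Akap3, Akap4, Gapdhs and Odf1), the sperm calcium channel (Catsper3 and Catsper4) and testis kinases (Tssk1 and Tssk2). At Tnp1, transition protein 1, fold enrichment was 11.1 and 6.40 in PS and 17.6 and 15.7 in RS. Hils1, a spermatid linker histone, had 20.2 and 9.60 in PS and 35.6 and 26.0 in RS. At Akap4, the main protein of the fibrous sheath and an X-linked gene, values were 12.6 and 11.7 in PS and 14.5 and 13.0 in RS. At these 3 both RS values exceeded both PS values before centring. The same held at 16 of the 21 adult-only members, beside 40.9% of all 1089 genes with adult-only promoters. At Gk2 (20.6 and 22.4 in PS, 17.2 and 11.4 in RS) and Insl6 both PS values were the higher, and at Tnp2, Tssk1 and Spaca1 the cell types overlapped. The starts of Tnp2, Tssk1 and Tssk2 also lay within 1000 bp of longer merged regions that were called in all 8 libraries and did not pass (assigned to Socs1 for Tnp2 and to Dgcr2 for the others). Within 2000 bp of the start, Tnp2 and Tssk1 had a peak in a spermatogonial library and were no longer adult-only. With stricter peaks (−log10 q of at least 5), Acrv1, Fhl5 and Catsper3 were not called in all 4 adult libraries and left the adult-only group.

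Another 4 members of the list had peaks in all 8 libraries (51.9% of all genes did), and 2 of these rose. Tcp11, which is needed for normal sperm motility, had fold enrichments of 6.58, 5.76, 5.20 and 4.08 in spermatogonia (Thy1 replicates 1 and 2, then KIT replicates 1 and 2, the order used throughout) and 26.7, 30.9, 36.4 and 35.7 in adult cells (PS, then RS). Every adult value lay above every spermatogonial one, and the centred log2 change was 1.92 (SE 0.144, limma adjusted p = 2.08e-07). Zpbp, a zona pellucida binding protein of the acrosome, rose by 0.93 (SE 0.158, limma adjusted p = 0.000215). Catsper2 (log2 change -0.05, SE 0.132, limma adjusted p = 0.767) and Dbil5 (0.29, SE 0.135, limma adjusted p = 0.0932) did not pass. The last 4 members, Spaca7, Catsper1, Izumo1 and Zpbp2, had peaks in some other set of libraries: the first 3 were called in PS replicate 1 and both RS libraries and missed in PS replicate 2, and Zpbp2 was called in every library but KIT replicate 2.

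**Figure D1:**
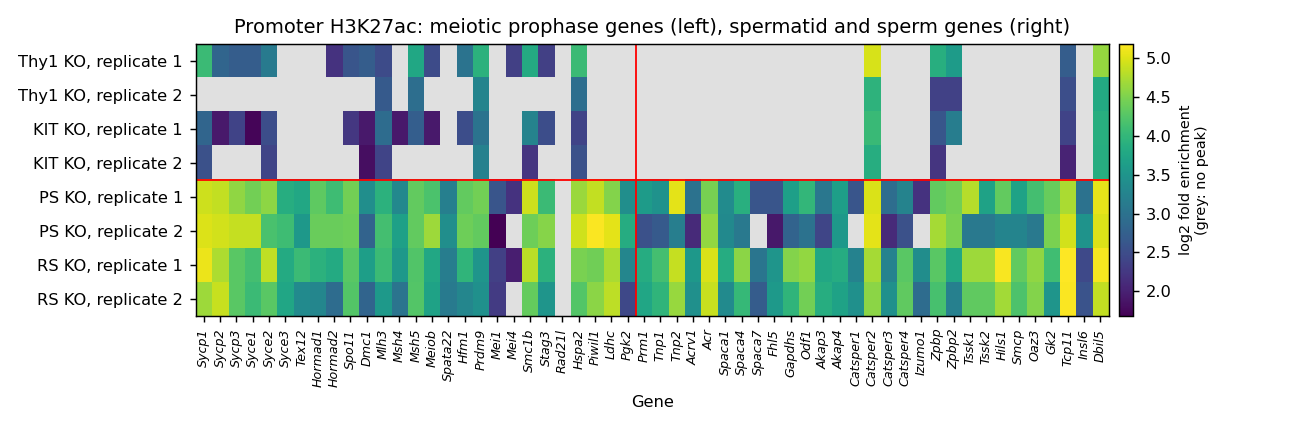
Log2 fold enrichment of the highest H3K27ac peak within 1000 bp of the start of each gene (columns) in the 8 knockout libraries (rows), grey where no peak was called. Spermatid and sperm genes are mostly grey in the upper 4 rows and coloured in the lower 4, whereas many meiotic prophase genes have weak peaks in the first replicates of Thy1 and KIT.

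Of 27 meiotic prophase genes with a listed start, 25 had promoter peaks in all 4 adult libraries. Of the 27, 8 (29.6%, beside 6.08% of all genes) had these and no spermatogonial peak. These 8 were Syce3 and Tex12 of the synaptonemal complex, Hormad1 of the unsynapsed axis, Spata22 and Mei1 of recombination, the PIWI protein gene Piwil1, and the germline enzymes Ldhc and Pgk2. Before centring, both PS values exceeded both RS values at 5 of the 8 (Syce3, Hormad1, Spata22, Piwil1 and Pgk2). The same held at 33.1% of all 1089 genes with adult-only promoters. The median fold enrichment at regions called in all 8 was itself higher in PS (18.7 and 19.7) than in RS (16.0 and 13.5). At the other 3 of these genes the cell types overlapped. A further 7 were called in the first replicates of both Thy1 and KIT and in neither second replicate. In all, 16 to 17 of the 27 promoters had a peak in a first and 4 to 7 in a second spermatogonial replicate. The first replicates held 34681 (Thy1) and 36362 (KIT) peaks of any kind, and the second 21286 and 22949. Shares of all genes per library, or in all 4 adult libraries, are not given here. The counts per library therefore do not set meiotic genes apart. Sycp3, a protein of the lateral element, shows the pattern: 6.58 in Thy1 replicate 1 and 5.20 in KIT replicate 1, no peak in the second replicates, and 24.4, 29.3, 19.6 and 19.5 in adult cells. Sycp1, of the transverse filaments, had 16.7, 7.09 and 5.83 in Thy1 replicate 1 and the 2 KIT libraries and 30.1, 32.0, 34.0 and 25.4 in adult cells. All called spermatogonial values of both genes lay below all adult ones, and the first spermatogonial replicates were those with the higher background heights, whose part in these calls was not tested. Among 3 meiotic genes called in all 8 (13.2% of all such regions rose), Hspa2, a chaperone of meiosis, rose by 0.92 (SE 0.152, limma adjusted p = 0.00017), Mlh3, of crossover resolution, rose by 0.64 (SE 0.172, limma adjusted p = 0.00706), and Prdm9, which places recombination hotspots, did not pass (-0.10, SE 0.15, limma adjusted p = 0.622).

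Genes for transcription regulators of meiosis and spermatid development included 4 of 19 with adult-only promoters: Rfx4, the testis bromodomain gene Brdt, Kctd19 and Hsf5. Over all genes 6.08% were adult-only. At each of the 4, both PS values exceeded both RS values before centring, which was the case at 33.1% of all 1089 genes with adult-only promoters. The higher median of the PS libraries was not taken out of these values. Of 8 called in all libraries, 4 rose and the other 4 (Rfx1, Rfx3, Crem and Hsf2) did not pass; of all regions called in all 8, 13.2% rose. Sox30, which spermatids need, had fold enrichments of 10.6, 7.03, 7.57 and 5.25 in spermatogonia and 35.1, 32.5, 33.2 and 36.2 in adult cells. The groups did not overlap, and the log2 change was 1.54 (SE 0.134, limma adjusted p = 7.93e-07). Mybl1, encoding A-MYB, which drives pachytene transcription, had 10.1, 5.76, 5.20 and 5.25 against 24.8, 27.7, 17.2 and 14.6, again without overlap (1.01, SE 0.135, limma adjusted p = 2.68e-05). The orphan nuclear receptor gene Nr6a1 rose by 0.87 (SE 0.136, limma adjusted p = 0.000107), and Tbpl1, a TBP relative used in spermatids, by 0.38 (SE 0.133, limma adjusted p = 0.0309). Rfx2 had peaks in both first spermatogonial replicates and no second one (9.62 and 6.15, against 11.4 to 21.9 in adult cells).

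Of 21 stem and progenitor cell genes, 0 had adult-only and 0 spermatogonia-only promoters. Across all genes the spermatogonia-only pattern was found at 18 (0.1%) and the adult-only pattern at 6.08%, so counts of 0 among 21 do not set these genes apart. Id4 was called in 3 spermatogonial libraries (6.58, 3.84 and 3.78) and stood higher in the adult ones (13.7, 19.7, 8.21 and 7.57). Bcl6b and Zbtb16 were called in both first spermatogonial replicates and in all 4 adult libraries. Of 3 promoters called in all 8, Taf4b, a TFIID subunit, rose by 0.39 (SE 0.133, limma adjusted p = 0.0249), and Etv5 and Foxo1 did not pass. In the list of 14 differentiation and meiotic entry genes, Dmrtb1, Rhox13 and the meiotic cohesin gene Rec8 were adult-only (21.4%, beside 6.08% of all genes). Another 5 were called in all 8, as were 51.9% of all genes. Of these, the retinoic acid receptor gene Rara rose by 0.67 (SE 0.125, limma adjusted p = 0.000458). Ccnd2, cyclin D2, went from 16.2, 8.95, 8.04 and 5.25 in spermatogonia to 9.91, 8.53, 5.08 and 4.33 in adult cells. These deposited values overlapped, and after centring the log2 change was -0.99 (SE 0.141, limma adjusted p = 4.75e-05). Dnmt3b, a de novo DNA methyltransferase, fell by 0.66 (SE 0.143, limma adjusted p = 0.00145).

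Of 15 cell cycle genes, 12 were called in all 8: Cdk2 (0.71), Ccna2 (0.62) and Top2a (0.57), used in S phase and in division, rose, Myc (-0.44) and Cdk6 (-0.46) fell, and 7 did not pass. Over all regions called in all 8, 13.2% were higher and 27.7% lower, and with 12 genes these counts do not set the list apart. All 11 housekeeping genes with a start were called in all 8. Of all genes, 51.9% had promoter peaks in all 8, beside these 11 and the 12 of 15 cell cycle genes. Of the 10 housekeeping genes whose region was tested, 10 did not pass (median log2 change -0.01). Without centring, each of the 7 listed falls (Ccnd2, Dnmt3b, Myc, Cdk6 and 3 somatic genes given below) no longer passed, the 13 listed rises passed, and 7 of the 10 housekeeping genes passed as higher, so that the falls hold only relative to the median region. Under quantile normalization Cdk6 did not pass (-0.23, limma adjusted p = 0.193), whereas Ccnd2, Dnmt3b and Myc remained lower and Cdk2, Ccna2 and Top2a higher.

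**Figure D2:**
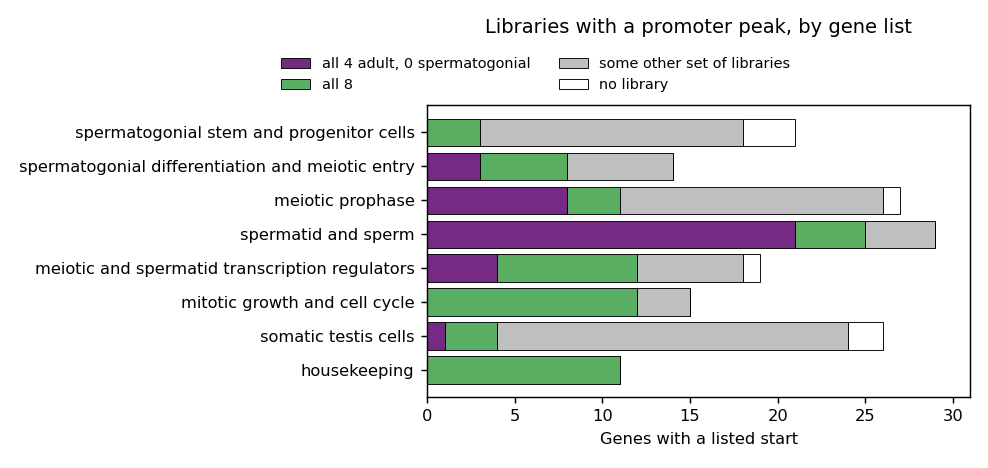
Number of genes (x axis) in each of 8 gene lists by the libraries in which their promoter had an H3K27ac peak. The adult-only class takes 21 of 29 spermatid and sperm genes, 8 of 27 meiotic prophase genes and 0 of 11 housekeeping genes, beside 6.08% of all genes. At that share a count of 0 among 11 does not set the housekeeping genes apart.

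The strongest adult-only promoters were picked by their fold enrichment, so their height is a description. Ranked by their lowest adult library, the first 8 were Mroh4, Ldhc, Ldhal6b, Gltscr1l, Pom121l2, Acr, Pdha2 and Piwil1. Ldhc, the lactate dehydrogenase of spermatocytes and sperm (chr7:46858493-46865281), had fold enrichments of 23.3 and 33.1 in PS and 26.6 and 28.7 in RS. Pdha2, a testis-specific autosomal copy of the X-linked gene of pyruvate dehydrogenase E1 alpha (chr3:141210371-141212656), had 22.1, 22.4, 27.4 and 22.7. Piwil1, whose protein MIWI binds piRNAs (chr5:128733109-128738934), had 29.0, 35.7, 21.5 and 23.8. These 3 were called in none of the 8 spermatogonial libraries, WT or KO. The median of the lowest adult value was 5.41 at the 1163 adult-only promoters and 12.98 at regions called in all 8.

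The strongest 6 adult-only regions outside promoters, at Gnal, Dync1i2, C2cd4b, Aym1, Fgf2 and Vmn2r111, had lowest adult values of 22.7 to 26.0. An intergenic region nearest to Dync1i2, a dynein intermediate chain gene (chr2:71155921-71160858), had 37.4 and 53.3 in PS and 24.6 and 27.6 in RS. A region upstream of Aym1, named for activation of yeast meiotic promoters (chr5:113333423-113343678), had 33.9, 47.5, 28.2 and 24.3. An exonic region at Fgf2 (chr3:37395313-37396977) had 35.1, 54.4, 23.9 and 24.9. In these 3 regions both PS values exceeded both RS values, but none of the 3 passed in the fit of RS against PS. Adult-only regions were nearest to 4477 genes, of which 3336 had 1 and 61 had 5 or more. The genes with most, chosen after their values were seen, were Chst1, a keratan sulfate sulfotransferase gene, with 18 over 100209 bp on chromosome 2, and Gldn, the gliomedin gene, with 15 over 72914 bp on chromosome 9.

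Within the adult-only regions, more were higher in round spermatids than in spermatocytes. In limma fits of RS against PS over the 21032 regions called in all 4 adult libraries, 2908 (13.8%) were higher in RS and 1583 (7.53%) in PS, and 7149 had an unadjusted p under 0.05. Among the 6577 adult-only regions, 2170 (33.0%) were higher in RS and 639 (9.72%) in PS. Without centring these counts were 1765 and 1279, so the balance depended on the scaling. The share higher in RS was 38.1% in exons, 35.9% at promoters and 29.5% in intergenic regions, where 15.0% were higher in PS. Acr, the acrosomal protease gene, was the named promoter that passed: 22.1 and 24.5 in PS and 31.7 and 29.8 in RS, without overlap (log2 change 0.62, limma adjusted p = 0.0497). Ldhc, Ldhal6b, Piwil1 and Pdha2 did not pass. Without PS replicate 2, 10919 regions were adult-only and limma called 0 in either direction (2976 higher and 907 lower in RS at an unadjusted p under 0.05). Without RS replicate 2 the count higher in RS was 1312, and without RS replicate 1 the count higher in PS was 278. The same comparison of KIT with Thy1 gave 0 of 10831 (0%) in limma, with 1230 at an unadjusted p under 0.05.

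At regions called in all 8 libraries, changes are log2 differences between libraries from which their own median had been subtracted. That median was 0.68 log2 units (1.60-fold) higher in adult cells before centring. Of the 10121 regions, 1337 (13.2%) were higher and 2804 (27.7%) lower in adult cells by limma at an adjusted p below 0.05; an unadjusted p below 0.05 was found for 5017. Rises of 2-fold or more numbered 84 and falls 335. The centred values of the sides did not overlap at 3109 regions (30.7%), including 931 of the rises and 1893 of the falls. The balance depended on the scaling: of the regions that passed, 32.3% were higher with centring, 48.7% with quantile normalization (1679 higher, 1768 lower) and 97.7% without centring (5100 higher, 119 lower). Of the 2804 falls, 1680 had a higher and 1124 a lower mean in adult cells before centring.

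**Figure D3:**
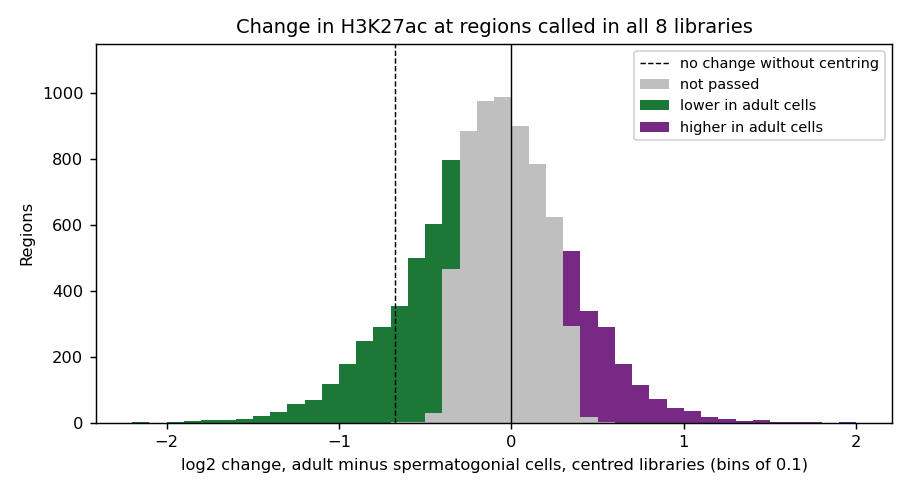
Histogram of the centred log2 change (adult minus spermatogonial cells, bins of 0.1) at the 10121 regions called in all 8 libraries, coloured by limma call. The dashed line at -0.68 marks no change without centring, and the larger part of the regions counted as lower lies between it and 0.

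The 8 largest promoter rises were at Tcp11, Hspa4l, Gstt2, Ak1, Sox30, Smpd5, Usp2 and Spdya. Hspa4l, an HSP110-family chaperone gene with a role in male fertility (chr3:40743470-40746807), had 8.61, 5.12, 7.09 and 6.41 in spermatogonia and 35.8, 44.8, 32.5 and 28.7 in adult cells (log2 change 1.71, SE 0.132, limma adjusted p = 2.18e-07). Spdya, whose protein Speedy A activates CDK2 in meiotic prophase (chr17:71550707-71553225), had 8.10, 5.76, 4.26 and 4.08 against 23.3, 30.9, 22.7 and 18.4 (1.46, SE 0.141, limma adjusted p = 1.62e-06). In both, the lowest adult value was above the highest spermatogonial one. Gstt2, a glutathione transferase gene, rose by 1.61 (SE 0.132), Ak1, adenylate kinase 1, by 1.54 (SE 0.176), Smpd5 by 1.52 (SE 0.157) and Usp2, a ubiquitin protease gene, by 1.48 (SE 0.153). When peaks within 1000 bp were joined, the rise at Gstt2 was 0.73 (limma adjusted p = 0.00128). Outside promoters, Meig1, needed for the spermatid manchette, rose most: a region in an intron (chr2:3417704-3421521) had 7.09, 5.76, 5.20 and 5.25 against 32.0, 38.4, 24.6 and 25.4 (1.68, SE 0.151, limma adjusted p = 9.93e-07). A region upstream of the forkhead gene Foxj2 rose by 1.27 (SE 0.126), and those at Slc17a5, C1qtnf4 and Zfp846 by 0.97 to 1.07. With joined peaks Slc17a5 rose by 0.42 (limma adjusted p = 0.0437).

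**Figure D4:**
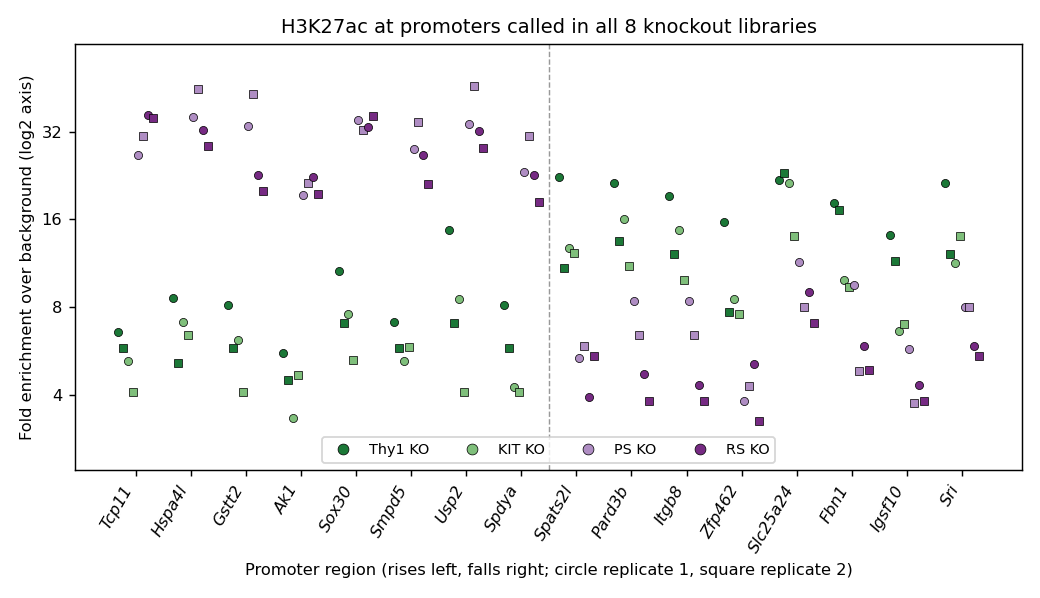
Deposited fold enrichment (log2 axis) of each library at the 8 promoters with the largest rise and the 8 with the largest fall, by cell type (colour) and replicate (shape). At the 8 rises every adult point lies above every spermatogonial point, and at Fbn1 PS replicate 1 (9.53) lies above KIT replicate 2 (9.33) before centring.

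The 8 largest promoter falls were at Spats2l, Pard3b, Itgb8, Zfp462, Slc25a24, Fbn1, Igsf10 and Sri, from -2.14 to -1.76. Spats2l (chr1:57774121-57775831) had 22.3, 10.9, 12.8 and 12.2 in spermatogonia and 5.34, 5.86, 3.91 and 5.41 in adult cells (-2.14, SE 0.161, limma adjusted p = 2.08e-07). Pard3b, a cell polarity gene (chr1:61638231-61639780), had 21.3, 13.4, 16.1 and 11.1 against 8.39, 6.40, 4.69 and 3.79 (-2.11, SE 0.136, limma adjusted p = 1.37e-07). Neither gene's groups overlapped before or after centring. Itgb8, integrin beta 8, had 19.2, 12.2, 14.7 and 9.91 against 8.39, 6.40, 4.30 and 3.79 (-2.00, SE 0.136, limma adjusted p = 1.64e-07). Fbn1, the gene of the microfibril protein fibrillin 1 (chr2:125504616-125507250), had 18.2, 17.3, 9.93 and 9.33 against 9.53, 4.80, 5.87 and 4.87 (-1.80, SE 0.2, limma adjusted p = 5.58e-06). Within spermatogonia both Thy1 values exceeded both KIT values at Fbn1 before centring, but limma called 0 of 10831 regions between KIT and Thy1. In the other classes, the largest falls lay upstream of Ddr2, a collagen receptor gene (-1.92, SE 0.139), in an exon of Lsp1 (-1.84, SE 0.128), upstream of Col6a1 (-1.84, SE 0.14), in an intergenic region near Enkur (-1.75, SE 0.184) and upstream of D6Ertd527e (-1.67, SE 0.182). At Lsp1 RS stood above PS (8.21 and 5.95 against 4.58 and 4.80; log2 change 0.80, limma adjusted p = 0.0167). All 26 named rises and falls passed with the same sign without centring and under quantile normalization. Without centring each change was higher by 0.68, so that the named falls were smaller (Fbn1 -1.12). Only 3 of the 26 could be compared with stricter peaks (−log10 q of at least 5), and 12 with the 21286 strongest peaks of each library. Those 3 and 12 passed with the same sign, and the others have no result in these settings.

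Spermatogonia-only regions were few. Their lowest spermatogonial value had a median of 4.08 and a maximum of 6.15. By class, 21 were at promoters, 32 in introns, 9 intergenic, 4 upstream and 4 in exons. At Lama2, laminin alpha 2 (chr10:27616324-27617217), fold enrichment was 10.1, 7.67, 7.57 and 5.25. Matn2, matrilin 2 (chr15:34306359-34307319), had 10.6, 6.40, 7.57 and 4.66, and Col3a1, the alpha 1 chain of type III collagen (chr1:45311374-45312486), 6.08, 5.76, 4.26 and 5.25. Peaks of WT spermatogonia, which took no part in the choice, were present in 4 of 4 libraries at Lama2 and Matn2 and in 3 of 4 at Col3a1. The other named promoters were Prickle2 of planar cell polarity, the membrane metalloproteinase gene Mmp16, Col5a2 of type V collagen, the WNT antagonist gene Sfrp4 and Arnt2. WT peaks were found in 4 of 4 libraries at Prickle2 and Arnt2, in 3 at Mmp16, in 1 at Sfrp4 and in 0 at Col5a2. The named regions outside promoters were at Arsj, Fam211a, Inhba (inhibin beta A), Rbks, Pdgfra (a PDGF receptor) and Tenm4, with 5.20 to 11.6 over the libraries. Fam211a, Inhba and Tenm4 had peaks in 4 WT libraries, Arsj and Rbks in 3 and Pdgfra in 1. When the 21286 strongest peaks of each library were used, 330 regions were spermatogonia-only and 1929 adult-only; without KIT replicate 2 or Thy1 replicate 2, the 2 libraries with fewest peaks, 230 and 192 were spermatogonia-only.

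Promoters of somatic testis cell genes are given beside the falls and the spermatogonia-only regions. Of 26 such genes with a start, 6 to 14 were called per spermatogonial and 11 to 18 per adult library, with summed fold enrichments of 43.7 to 110.4 and 66.5 to 163.7. Adult libraries also held more peaks of any kind, 63322 to 73316 against 21286 to 36362. Shares of all genes per library are not given here. The counts and sums therefore do not compare somatic cells between the sides. Peritubular genes (Acta2, Myh11, Cnn1 and Des) summed to 0 to 26.3 in spermatogonia, with KIT replicate 2 at 0, and to 3.79 to 8.21 in adult cells. The 5 Sertoli markers summed to 0 to 17.5 and 8.66 to 46.4, the 5 Leydig markers to 0 to 16.6 and 4.30 to 25.1, with Cyp17a1 and Hsd3b1 called in none of the 8. Macrophage markers summed to 0 to 10.6 and 4.80 to 33.2, and endothelial ones to 6.41 to 10.9 and 9.74 to 21.9. Among the 3 called in all 8, where 27.7% of all regions fell, Gata4 (-1.18, SE 0.138, limma adjusted p = 8.24e-06), Inha (-0.76, SE 0.135, limma adjusted p = 0.000293) and Cdh5 (-0.47, SE 0.142, limma adjusted p = 0.0131) fell after centring; none of these passed without it, and Cdh5 did not pass under quantile normalization. Besides these 3, the start of the macrophage gene Cd68 lay within 1000 bp of a merged region called in all 8 that rose. That region, assigned to Mir1934 and Mpdu1, changed by 0.52 (SE 0.13, limma adjusted p = 0.00395). Peaks within 1000 bp of the Cd68 start itself were called in 4 adult and 1 spermatogonial library. The part of somatic cells in the falls was not tested.

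Location differed between the sets. Promoters made up 85.6% of regions called in all 8, 17.7% of adult-only regions and 30.0% of spermatogonia-only regions, beside 14.4% of all 124297. Adult-only regions were intergenic in 28.1%, intronic in 25.8%, upstream in 15.0% and exonic in 13.5%. Their median length was 1479 bp, against 2391 bp for regions called in all 8. Of the regions called in all 8, 54.2% of 474 intronic and 48.3% of 424 intergenic ones were lower in adult cells, against 24.7% of 8659 promoters; 14.0% of those promoters, 5.91% of intronic and 6.60% of intergenic regions were higher. Single peaks, counted per library without merging, were intronic in 35.6% ± 0.796 (SD, n = 4) of adult and 26.3% ± 7.45 (SD, n = 4) of spermatogonial peaks, a difference of 9.26 percentage points (exact permutation test, 2-sided, p = 0.0286, the smallest 4 against 4 allows; adjusted p = 0.0429 over 3 tests). The intergenic share was 18.3% ± 0.467 and 11.2% ± 2.60 (SD, n = 4 each), a difference of 7.05 points (exact permutation p = 0.0286, adjusted p = 0.0429). Within replicate numbers, the intronic difference was 3.47 points for the first and 15.1 for the second replicates, and the intergenic one 5.22 and 8.88. When the 21286 strongest peaks of each library were used, the intronic difference turned to -4.48 points (exact permutation p = 0.0286). The median peak length did not differ beyond the spread (log2 difference -0.04, exact permutation p = 0.686).

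**Figure D5:**
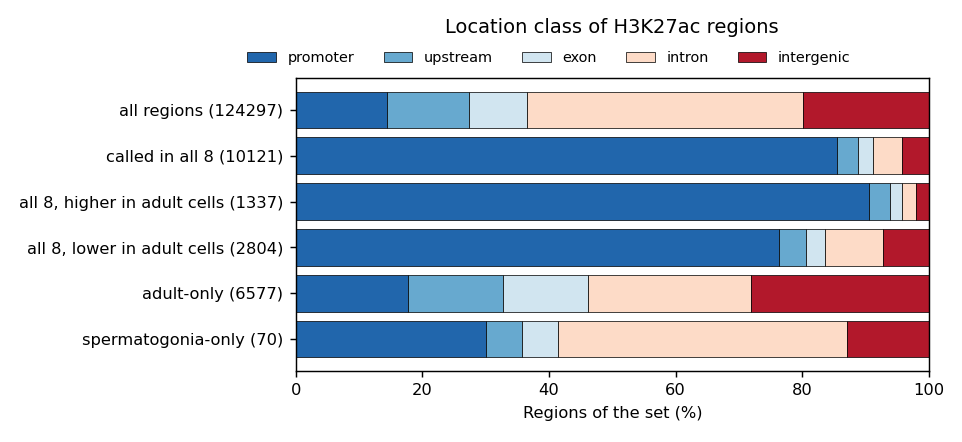
Share (x axis, %) of each location class among all merged regions, those called in all 8 libraries, those of them that rose or fell, and the regions called on 1 side only; numbers of regions are in brackets. Promoters fill 85.6% of regions called in all 8 and 17.7% of adult-only regions.

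On the X chromosome, whose genes are silenced in pachytene spermatocytes in normal meiosis and in part stay repressed in spermatids, falls outnumbered rises. Of 241 X-linked regions called in all 8, 120 (49.8%) were lower and 12 (4.98%) higher in adult cells, beside 27.2% and 13.4% of 9877 autosomal ones. Their median centred level was -0.36 and -0.21 in Thy1, -0.37 and -0.38 in KIT, -0.53 and -0.62 in PS and -0.77 and -0.74 in RS. Every adult library stood below every spermatogonial one, and both RS below both PS. Before centring, the median fold enrichment at these regions was 12.7, 8.31, 8.04 and 5.83 in spermatogonia and 13.0, 12.8, 9.39 and 8.11 in adult cells, so the deposited values overlapped. Without centring 65 X-linked regions were higher and 3 lower, with median changes of 0.30 on X and 0.57 on autosomes, and with quantile normalization 21 were higher and 75 lower. Of the 108 adult-only regions on X, 39 were promoters and 44 intergenic, and X held 1.64% of adult-only regions and 1.80% of all regions.

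Promoter sequence was compared among regions called in all 8. A RefSeq promoter within 1000 bp was found for 84.4% of 1210 promoters that rose, 80.1% of 2140 that fell and 83.7% of 5309 that did not pass. The ratio of observed to expected CpG had a median of 0.795 in the rises, 0.723 in the falls and 0.809 in the rest, and was at least 0.6 in 83.5%, 67.4% and 82.9%. RFX letters were found in 4.51%, 2.10% and 2.86%, MYB letters in 10.4%, 7.99% and 8.32%, and ETS letters (CCGGAAG) in 15.4%, 10.9% and 18.6%. NRF1 letters (GCATGCG) were in 7.64%, 4.67% and 6.86%. Over all promoters in the table these shares were 3.66%, 10.6%, 6.91% and 3.02%. For adult-only and spermatogonia-only promoters the check is void, because 77.6% of 1163 and 66.7% of 21 had a sequence in the table, under the 80% required here.

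Libraries of WT spermatogonia, which the definitions did not use, were set beside the KO regions. Of the 6577 adult-only regions, 6350 (96.5%) had no peak in any of the 4 WT libraries, 227 had at least 1 and 0 had all 4. Of all 124297 regions, 82.1% had no WT peak, 17.9% had at least 1 and 7.89% had all 4. Of the 70 spermatogonia-only regions, 62 (88.6%) had at least 1 WT peak and 14 (20.0%) had all 4. At the 2434 falls called in all 4 WT libraries as well, the median centred level was 0.06 in KO and -0.08 in WT spermatogonia, and at the 1181 rises it was -0.21 and -0.27. At the 5470 that did not pass it was 0.19 and 0.09, where WT libraries were centred over the regions called in all 12 libraries and KO libraries over all 10121. The KO values chose these regions, so their levels are a description. At Tcp11, 2 WT libraries (both Thy1) had peaks, at 4.19 and 7.84. Pard3b had 11.0, 10.3, 15.4 and 9.92 in the WT libraries, beside 3.79 to 8.39 in the adult KO libraries.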

How the data were processed

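H3K27ac was measured by ChIPmentation, in which a transposase adds sequencing adapters to immunoprecipitated chromatin, and each library had its own table of peaks. Reads were processed with Bowtie and MACS2 on mm10, per the submitters' processing notes; versions and filters are not given in the sources used here. Per the file headers, the deposited tables gave the signal height (pileup) at each summit, a ratio (fold enrichment), −log10 p and −log10 q values and peak length. The deposited fold enrichment equalled (height + 1) over (background + 1), with 1 background per library, so no input was subtracted.

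The highest summit stood for each peak, mitochondrial peaks were left out, and peaks overlapping by at least 1 bp were merged. A library took the highest fold enrichment of its peaks in a region, and the class and gene of a region were those of its strongest peak. Log2 values of regions called in all 8 were centred per library and fitted with limma 3.58.1 (R 4.3.3) on 4 cell types, contrasting the mean of PS and RS with that of Thy1 and KIT. A Benjamini-Hochberg adjusted p under 0.05 over all regions was called, and the fit was tested on simulated data. Library values were compared by exact permutation (Python 3.11.15, scipy 1.17.1).

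Named regions were, among those past the threshold without overlap of centred values, the 8 promoters and 5 others with the largest rise and fall, and, among adult-only and spermatogonia-only regions, the 8 promoters and 6 others with the highest lowest-library value, with 1 gene symbol each; predicted genes, Rik clones and small RNAs were passed over (5 rises or adult-only regions and 3 spermatogonia-only ones). Promoter peaks of the listed genes lay within 1000 bp of a start the files give for that gene alone, found for 162 genes. Members and lists were chosen with earlier results of these data known. The alternatives were a replicate block, 2 groups, other scalings, other peak sets and merging rules, and leaving out each library.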

Additional observations from a re-analysis of the deposited data

How the results depend on the processing

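Against 1337 rises and 2804 falls, counts were 5100 and 119 without centring, 1679 and 1768 with quantile normalization, 2474 and 7848 with missing calls filled by the lowest value of the library, 981 and 1820 with stricter peaks (−log10 q of at least 5), and 1461 and 1784 with the same number of peaks; leaving out 1 library gave 966 to 1481 and 2162 to 2951. The replicate block gave 1377 and 2889. After centring, same-numbered libraries deviated together with correlations of 0.011 to 0.091, none over 0.1, so the numbers were not taken as pairs. Centring takes differences between whole libraries out of these correlations. In each cell type, replicate 1 had more peaks and a higher background height than replicate 2 (in RS, 73316 against 63322 peaks and 1.56 against 0.849). The main counts of called regions were not corrected for this difference. Adult-only regions (6577) numbered 3354 with stricter peaks, 1929 with the same number of peaks and 6618 to 10919 without 1 library, the highest without PS replicate 2. Spermatogonia-only regions (70) numbered 18, 330 and 74 to 230, and 1 of 14 named ones kept its place with stricter peaks, against 14 of 14 named adult-only ones. The intronic difference (9.26 points) was -4.48 with the same number of peaks and 6.51 to 11.9 without 1 library (exact permutation p up to 0.114); with the replicate block it stayed 9.26 (exact permutation p = 0.0556), as did the intergenic one at 7.05 (exact permutation p = 0.0556; 6.29 to 8.01 without 1 library). The median length difference (-0.04) was 0.25 with stricter peaks, 1.48 (exact permutation p = 0.0286) with the same number and -0.0923 to 0.0257 without 1 library; the cause was not tested. The listed adult-only promoters (37) were 34 within 2000 bp and 37 with stricter peaks. The 37 with stricter peaks were not the same genes. Mei1, Acrv1, Fhl5, Catsper3 and Pecam1 were no longer adult-only, and Hormad2, Msh4, Ovol1, Ovol2 and Amh became so. Read depth is unknown, so a missing peak does not show that acetylation is absent.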

Other observations

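Besides the 10121 regions called in all 8 libraries, 1551 were called in all 4 adult and 3 spermatogonial libraries and 339 in 3 adult and all 4 spermatogonial ones. Most merged regions rested on 1 library: 50576 were called in 1 adult and 0 spermatogonial libraries and 14688 in 1 spermatogonial and 0 adult libraries.

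Among spermatogonia-only regions outside the naming rule, 1 lay in an exon of Scml2 itself (5.06, 5.12, 3.78 and 5.25; chrX:161237498-161237759, 262 bp). Cdh11, a cadherin gene, had 11.6, 7.03, 5.67 and 3.50 at its promoter, and Clmp 12.2, 7.67, 3.31 and 3.50. At Cdh11 and Clmp, both Thy1 values lay above both KIT values before centring, but limma called 0 of 10831 regions between KIT and Thy1. At Scml2 the 2 fractions overlapped. These genes were chosen after their values were seen.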
